A study of Sus scrofa with 12 samples.

Results

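Solute carriers, the SLC genes, encode most of the membrane proteins that move amino acids, ions, metals, vitamins, lactate, fatty acids and nucleotides into cells and between their compartments. Here they were taken as all listed genes whose symbol starts with SLC and a number, SLC7A1 left out. Being listed required a peak. Beyond that no measured value entered the rule, but it was set with earlier results of these data known. Of the 2159 genes with an N6-methyladenosine (m6A) peak, 42 met this rule, and they carried 188 of the 13487 peaks. SLC9A3R1 and SLC9A3R2 meet the rule by name only: they encode scaffold proteins that bind transporters, and 40 genes remain without them.

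The samples were longissimus dorsi, the long back muscle, of 5-day-old Large White and Ningxiang pigs, with 3 replicates per breed. In each, fragmented mRNA was enriched with an m6A antibody and set against unenriched fragments as input. The labels name no treatment. Nothing in the labels says whether the numbered replicates were separate pigs. The p-values therefore cover only variation among these 6 samples, and part or all of it may be technical.

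m6A is written on mRNA by a methyltransferase complex built around METTL3 and METTL14, mostly in long exons and around the start of the 3′ untranslated region. Reader proteins that bind it act on the stability and translation of the mRNA. In young muscle, carriers supply creatine, lactate, fatty acids, amino acids and metal ions to a tissue with a high energy demand, and mitochondrial carriers link the cytosol to oxidative metabolism.

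A peak list gives, for each peak, a fold (immunoprecipitated over input signal) and a p-value, both the authors' own. The strongest peak of a gene in a list is the one with the lowest p. Lists held 2034 to 2533 peaks, and read depth is unknown from them. Why a gene had no peak is not given by the lists. Little or no RNA and the cut of the peak caller cannot be told apart, and the gene may still carry m6A. The lists named almost only genes with a curated RefSeq transcript (2129 such genes, 2159 listed in all). SLC genes without such a transcript are not judged here. In bulk muscle, fewer cells of a type and less RNA per cell cannot be told apart. Of 8 skeletal muscle markers with a curated transcript, 7 had a peak in all 6 lists, and ACTA1 had none. Markers of endothelium (2 of 3 in all 6 lists), leukocytes (2 of 3), fibroblasts (2 of 4) and adipocytes (2 of 5) were also listed. The erythroid marker HBB had no peak, and SOX10 of Schwann cells had one in 1 Large White and 3 Ningxiang lists. The part of these other cells in the carrier peaks was not tested.

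Peaks were listed on 42 of the 101 SLC genes that have a curated RefSeq transcript, 41.6%, where 53.5% of all 3980 genes with such a transcript had one. Of 38 subfamilies with a curated member, 23 had a peak and 15 had none. The subfamilies were grouped by what they carry. Peaks were listed on 9 of 15 genes of the inorganic ion and acid-base group (scaffold genes included), on 8 of 13 mitochondrial carriers and on 8 of 14 trace metal carriers. The amino acid group had 5 of 15, the nucleoside and nucleotide sugar group 4 of 9, and the group of vitamins, folate, haem and peptides 3 of 8. The sugar group had 1 of 10 and the carriers of organic ions, bile acids and drugs 1 of 9. As grouping was by whole subfamily, the sugar group also holds the SLC5 genes that carry anions, SLC5A5 and SLC5A8.

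Several subfamilies with many curated members had no listed peak at all. None of the 6 SLC5 genes, the sodium-coupled sugar and anion carriers, had one, nor any of the 6 SLC22 genes, which carry organic ions mainly in kidney and liver. SLC2A4, the insulin-responsive glucose carrier of muscle, had no peak in any list, and neither did SLC2A2, the glucose carrier of liver. None of the 3 curated SLC38 genes, which carry neutral amino acids, was listed. Among mitochondrial carriers, SLC25A3, the phosphate carrier, and SLC25A6, an ADP/ATP exchanger, were without a peak.

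Of the 42 genes, 14 had a peak in all 6 lists (33.3%; 35.7% of all genes with a peak) and 11 in 1 list only (26.2%; 18.2% of all genes with a peak). Those in all 6 lists included SLC9A2, SLC9A3R1, SLC16A1, SLC25A25, SLC25A27, SLC25A39, SLC25A51, SLC27A1, SLC31A1, SLC39A7, SLC41A1 and SLC66A1. Mitochondrial carriers gave 5 of them. The peaks of the single-list genes were weak by p, with log10 p from -5.98 to -2.64 and a median of -3.47. The median was -10.45 over the peaks of the 14 genes in all 6 lists. The same order held over all genes, with medians of -4.57 for those in 1 list and -12.9 for those in 6. Folds of single-list peaks nevertheless reached 10.8, so a high fold alone did not go with recurrence.

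**Figure D1:**
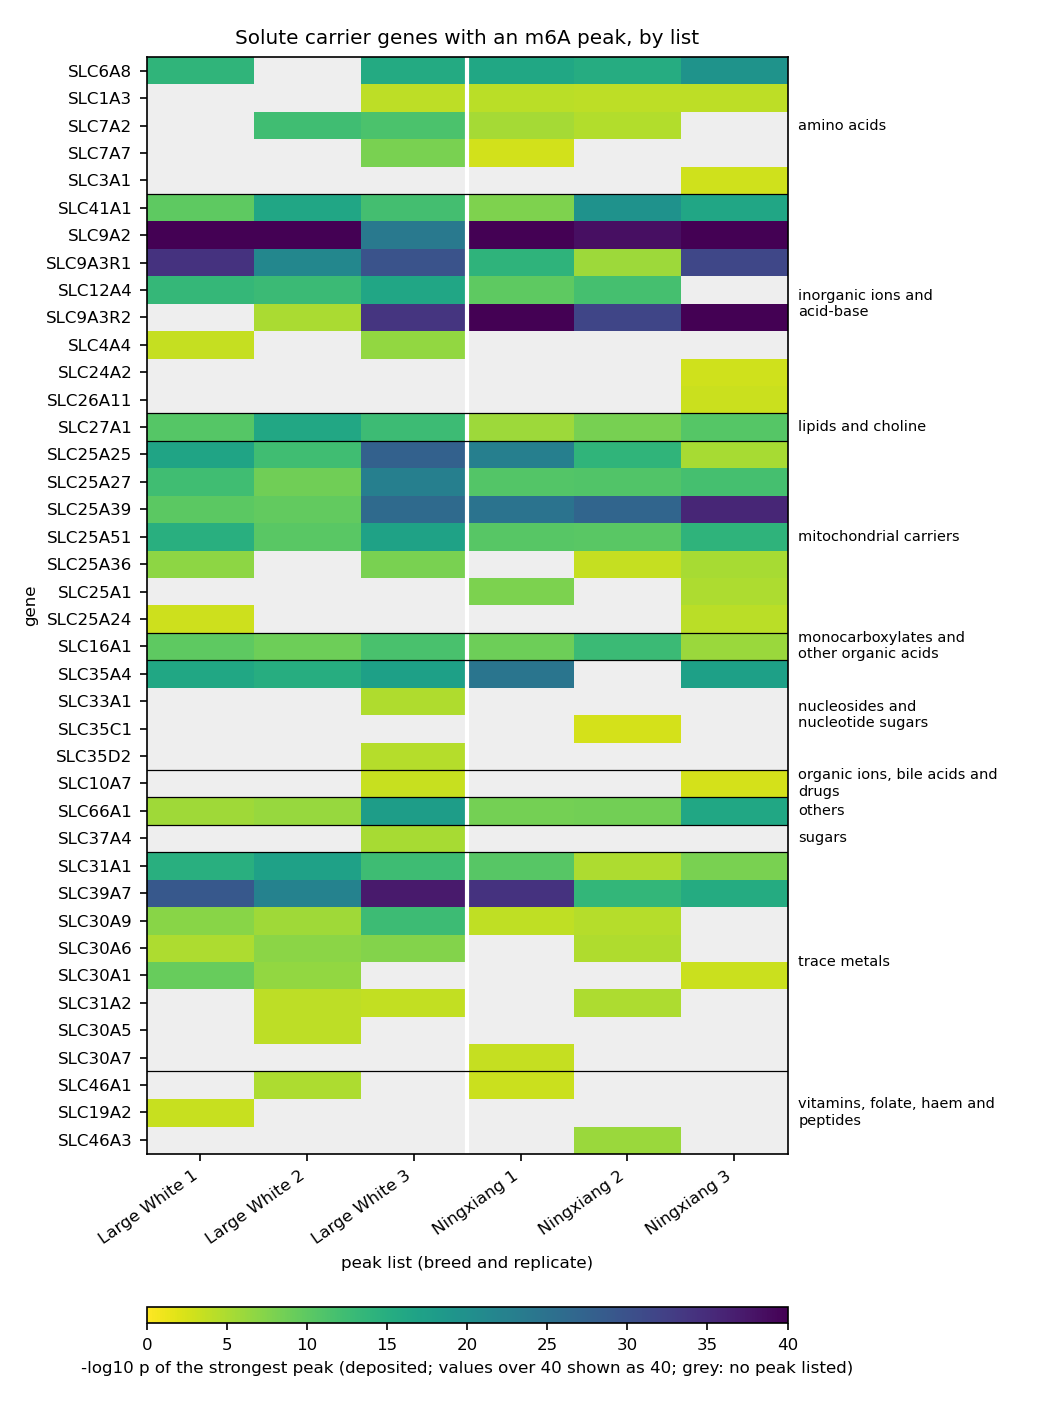
The tiles give, for 40 of the genes (vertical axis, grouped by what the subfamily carries) and each of the 6 lists (horizontal axis), the deposited −log10 p of the strongest peak, with values over 40 drawn as 40 and grey where no peak was listed. SLC9A2 is at 38.4 or above in 5 of 6 lists, while genes with a single coloured tile stay below 6.

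Large White and Ningxiang lists held similar numbers of these genes. Large White replicates 1, 2 and 3 had peaks on 24, 24 and 30 of them, and Ningxiang replicates on 25, 25 and 26. The means were 26 ± 3.46 and 25.3 ± 0.577 (SD, n = 3 per breed; exact two-sided permutation test, p = 1, adjusted p = 1). Large White replicate 3 stands above the other lists and is also the longest list, with 2533 peaks. Without it the difference turned from 0.667 genes more in Large White to -1.33, and at an equal number of peaks per list it held 25 of the genes.

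Peaks on these genes numbered 27, 31 and 40 in Large White and 30, 29 and 31 in Ningxiang. Their means of 32.7 ± 6.66 and 30 ± 1 overlapped (SD, n = 3; exact permutation test, two-sided p = 0.8, adjusted p = 1). As a share of all genes with a peak, the SLC genes made up 1.62%, 1.74% and 1.95% in Large White and 1.91%, 1.85% and 1.80% in Ningxiang. The means were 1.77% ± 0.164 and 1.85% ± 0.0533 (SD, n = 3; exact permutation test, two-sided p = 0.5, adjusted p = 1). With 3 lists against 3 the smallest two-sided p is 0.1, so none of the 4 comparisons made here could pass 0.05.

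No SLC gene was listed in all 3 replicates of either breed while missing from the other breed. Among all genes with a peak, 2.08% met this rule, 1.34% in Large White and 0.741% in Ningxiang, so a count of 0 in 42 is near the background. The same held for single sites: none of the 108 exonic regions of SLC genes, formed by merging overlapping peak blocks of all lists, was split between the breeds in this way (2.46% of all 9348 regions were). In 2 genes, SLC1A3 and SLC30A6, a peak was listed in 3 of 3 lists of one breed and in 1 of 3 of the other. The rule of 3 of 3 lists of one breed and 1 or 0 of the other was met by 6.99% of all genes with a peak. SLC4A4, the sodium bicarbonate cotransporter, was listed in 2 Large White lists and no Ningxiang list. SLC25A1, the mitochondrial citrate carrier, was listed in 2 Ningxiang lists and no Large White list.

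SLC1A3 encodes a glutamate transporter of the plasma membrane. Its strongest peak had a fold of 2.25 in Large White replicate 3, and 5.25, 2.45 and 3.30 in Ningxiang replicates 1, 2 and 3. All 4 lay in the last exon of the transcript, 268 to 358 bases before its end, and shared 90 bases. Their log10 p of -3.99 to -4.07 placed each among the weaker peaks of its list, 87.0% to 89.3% of the way down by p. Ningxiang replicate 2 had a second peak near the start of the gene, with a fold of 14.9 and a log10 p of -3.76. At an equal number of peaks per list the Large White peak was no longer kept, so the gene then counted as Ningxiang only. The share of all genes that did so in that setting is not given here.

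SLC30A6 encodes a zinc transporter of the secretory pathway. Folds of its peak were 12.1, 3.15 and 2.47 in Large White replicates 1, 2 and 3, and 2.37 in Ningxiang replicate 2. The peaks lay in exon 13 of 13, with 178 bases shared by all 4. Large White replicate 1 had the highest fold but a log10 p of only -4.91, against -6.92 and -7.42 in the other Large White lists and -4.75 in Ningxiang. With the stronger 50% of each list neither SLC1A3 nor SLC30A6 kept a peak.

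Of the 188 peaks, 126 lay in the last exon of the transcript, counted from the 5′ end, or in a listed 3′ untranslated region. A further 24 were in the first exon or a listed 5′ untranslated region, with 2 peaks of SLC35A4, whose transcript is a single exon, counted in both. The other SLC35A4 peaks, listed as 5′ untranslated region, were counted by that class and not as last exon. The last exon took 63.0%, 67.7% and 65.0% of SLC peaks in Large White, and 73.3%, 72.4% and 61.3% in Ningxiang. The breeds overlapped, with means of 65.2% ± 2.40 and 69.0% ± 6.70 (SD, n = 3; exact permutation test, two-sided p = 0.4, adjusted p = 1). For all other genes together the share was 41.5% to 42.6%, below the SLC share in each of the 6 lists. This is a description of the same 42 genes seen in 6 lists and not a test of the family. With each gene counted once, by its strongest peak over all lists, the gap was smaller. The last exon then held 25 of 42 SLC genes (59.5%) and 1007 of 2117 others (47.6%). Why the gap was smaller was not tested.

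A peak listed by exon number that crosses a splice junction has the exon of its lowest coordinate. This favours the last exon on the minus strand. Peaks listed as untranslated region were counted by that class, also where they began in another exon, as in SLC16A1 in Ningxiang replicate 2. On the plus strand 59.4% of SLC peaks and 37.1% of other peaks were in the last exon, and on the minus strand 75.9% and 47.5%. Fewer SLC peaks crossed a junction, 33.3% to 40% per list against 54.3% to 59.6% for other genes. Median folds of SLC peaks were 2.54 to 3.38 per list, above the list median of 2.42 to 2.60 in each list, while their median log10 p of -10.45 to -8.07 was weaker than the list median in each list.

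**Figure D2:**
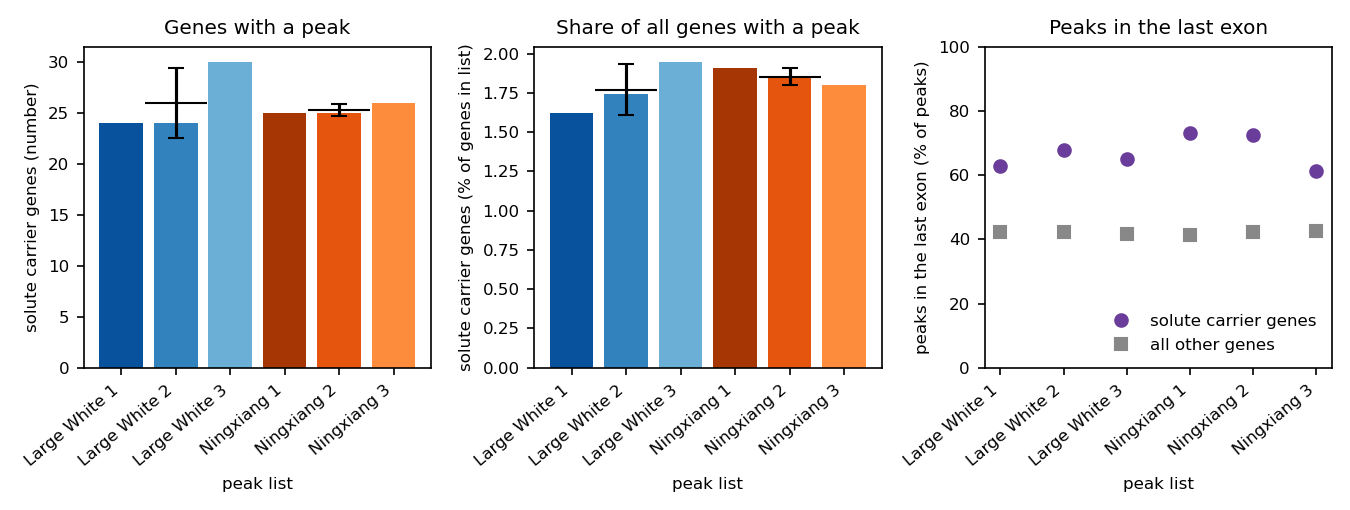
Bars give the number of SLC genes with a peak (left) and their share of all genes with a peak (middle) for each list, with the mean and SD of each breed in black (n = 3). Points at right give the percentage of peaks in the last exon, from 61.3% to 73.3% for SLC genes and from 41.5% to 42.6% for all other genes.

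Genes of pH and ion balance carried the strongest transporter peak of the set. SLC9A2 is a sodium-proton exchanger known mainly from epithelia. Its strongest peaks had folds of 11.5, 9.13 and 4.61 in Large White replicates 1, 2 and 3 and of 5.85, 9.67 and 5.26 in Ningxiang. Their log10 p was -42.5, -40.3 and -23.9 in Large White and -45.1, -38.4 and -45.6 in Ningxiang. Only Large White replicate 3 was weaker than the rest, and the breeds overlapped. All reached exon 12 of 12 and ended 30 or 60 bases before the transcript end, and 270 bases were covered in every list, at chromosome 3, 51535858 to 51536127 (susScr11, minus strand).

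The scaffold genes, whose proteins bind membrane proteins at the cell surface, were listed in 6 and 5 lists. SLC9A3R1 had folds of 6.34, 4.86 and 4.73 in Large White and 3.98, 3.18 and 9.26 in Ningxiang. Its log10 p ranged from -34.1 in Large White replicate 1 to -5.83 in Ningxiang replicate 2, and the breeds overlapped. All 6 peaks reached exon 6 of 6 and shared 179 bases, at chromosome 12, 6466702 to 6466880. SLC9A3R2 was listed in 2 Large White and 3 Ningxiang lists, and its peak in Ningxiang replicate 3 had a log10 p of -74.4, the lowest of any SLC gene, at a fold of only 2.63. Its site at chromosome 3, 39943144 to 39943352, was covered in all 3 Ningxiang lists and in Large White replicate 3, whereas the weak peak of Large White replicate 2, with a log10 p of -5.14, lay closer to the transcript end.

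SLC41A1, a magnesium transporter, had last-exon peaks in every list. Folds were 2.31, 3.04 and 2.91 in Large White and 2.45, 4.40 and 2.78 in Ningxiang. Log10 p was -9.86, -16.4 and -11.9 in Large White and -7.71, -19.6 and -16.3 in Ningxiang, with no order between the breeds. There were 2 sites in that exon. The upstream one, at chromosome 9, 66474177 to 66474714, had peaks in 2 Large White and 3 Ningxiang lists, and the one nearer the end in 2 and 1. Large White replicate 3 also had a peak in exon 1, with a fold of 2.65. Large White replicate 1 had only the site nearer the end, so no base was covered in all lists.

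Among the other ion carriers, SLC12A4, a potassium-chloride cotransporter, was listed in 3 Large White and 2 Ningxiang lists with folds of 1.92 to 2.40. Its strongest peaks lay at 96.1% to 97.2% of the way along the gene. SLC4A4 had folds of 4.21 and 5.48 in Large White replicates 1 and 3. SLC24A2, a sodium-calcium-potassium exchanger, and SLC26A11, an anion transporter, were each listed in Ningxiang replicate 3 alone, with log10 p of -2.86 and -3.15.

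Mitochondrial carriers, the SLC25 proteins of the inner membrane, were the subfamily with the most listed genes. SLC25A39, needed for glutathione import into mitochondria, had folds of 2.43, 1.76 and 2.34 in Large White and 2.35, 2.19 and 2.43 in Ningxiang. Its log10 p was -10.1, -9.61 and -26.2 in Large White and -24.8, -27 and -35.7 in Ningxiang. Large White replicates 1 and 2 were the weakest lists, while replicate 3 lay within the Ningxiang range. The peaks were in the 3′ untranslated region and ended 30 to 149 bases before the transcript end, with 90 bases covered in all lists.

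SLC25A27, an uncoupling protein known mainly from brain, was marked over a long stretch of 1 exon. Folds were 5.82, 5.11 and 9.16 in Large White and 4.69, 3.75 and 4.32 in Ningxiang. Each strongest peak covered 360 to 747 bases of the 3′ untranslated region, and 300 bases were covered in all 6 lists, at chromosome 7, 41454060 to 41454359. Every Large White fold was above every Ningxiang fold, but folds are the authors' values within a list and are not compared as methylation levels here. How many of all genes show such an order is not given here. Log10 p overlapped between the breeds, at -12.3, -8.72 and -22.7 in Large White and -10.7, -10.8 and -11.8 in Ningxiang.

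SLC25A25, a calcium-regulated ATP-magnesium/phosphate carrier, was marked away from the 3′ end. Folds were 2.03, 2 and 2.87 in Large White and 2.90, 2.78 and 2.22 in Ningxiang. Log10 p was -16.7, -12.3 and -27.5 in Large White and -22.7, -13.9 and -5.16 in Ningxiang. Each peak spanned 2 to 4 exons and began in exon 3 of 11, or in exon 2 in Large White replicate 3. In all lists 149 bases in exons from the third on were covered, between 268568236 and 268568464 on chromosome 1.

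SLC25A51, which brings NAD into mitochondria, was the SLC gene with the most peaks, 15 over 6 lists. The strongest had folds of 3.76, 4.89 and 3.67 in Large White and 7.58, 3.43 and 3.25 in Ningxiang, with log10 p of -14.7, -10.2 and -16.9 and of -10.4, -10.2 and -14. They were spread over the transcript: a peak joining all 3 exons or the last 2 was listed in every list, and another in the body of exon 3. A peak at the very 3′ end of that exon was listed in all 3 Large White lists, with blocks of 385, 149 and 355 bases. No Ningxiang list had a separate one there, and in Ningxiang replicate 3 a single 739-base peak ran into it, up to 118 bases before the end. Once blocks were merged over lists, this end and the body of exon 3 formed 1 region, listed in 3 Large White and 3 Ningxiang lists. The share of all genes with such a contrast in separate peaks is not given here.

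The remaining mitochondrial carriers were listed in fewer lists. SLC25A36, a pyrimidine nucleotide carrier, was in 2 lists of each breed with folds of 1.92 to 2.19. SLC25A24, the relative of SLC25A25, was in 1 list of each breed at sites that shared no base. The SLC25A1 peaks of Ningxiang replicates 1 and 3 had folds of 2.56 and 2.05 and shared only 31 bases.

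**Figure D3:**
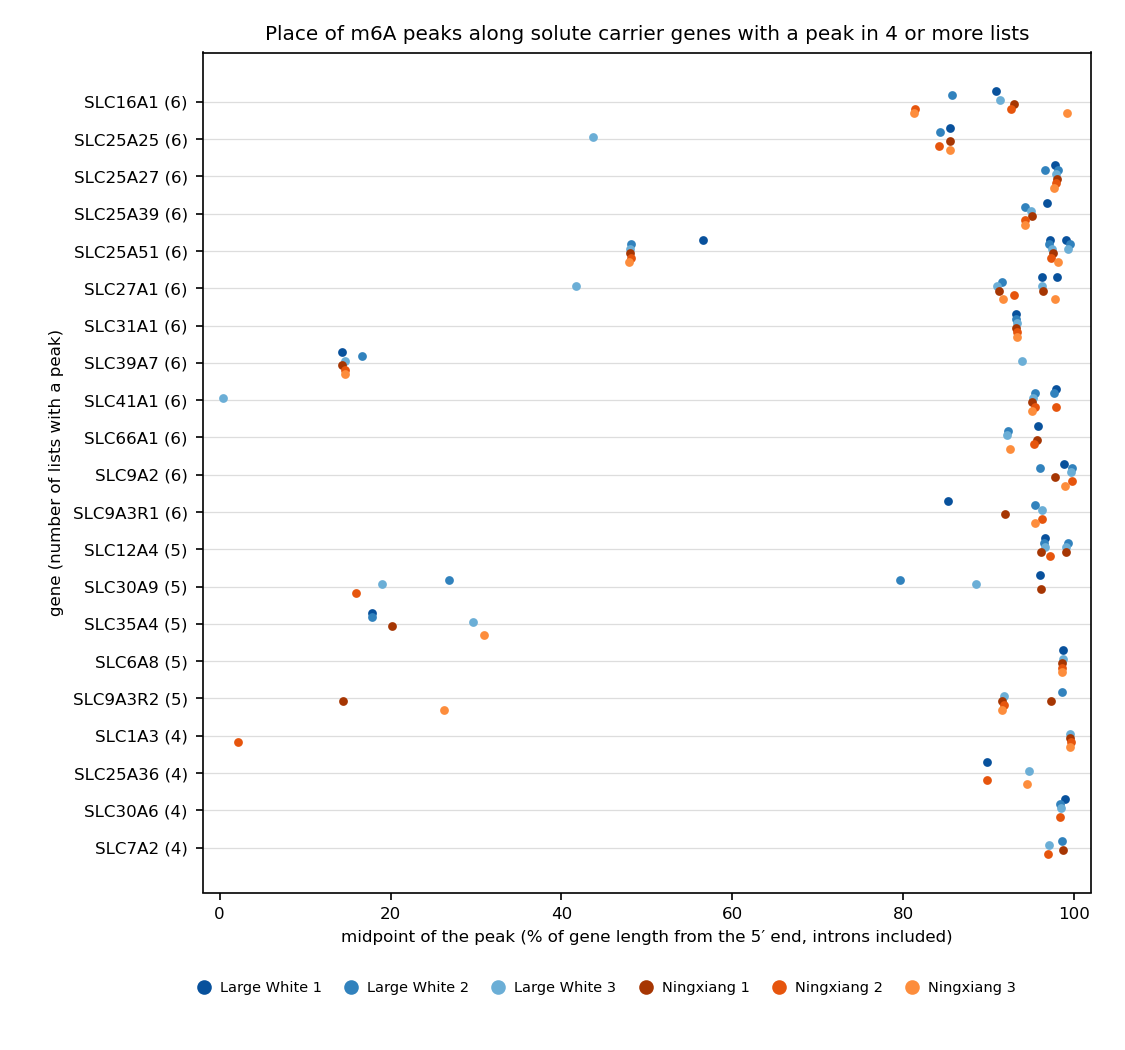
Each point is a peak, placed by its midpoint along the gene (horizontal axis, percent of the genomic length, introns included, counted from the start of the gene), for SLC genes listed in 4 or more of the 6 lists (vertical axis), coloured by list. Most points lie at the right, near the 3′ end, while SLC39A7 and SLC35A4 lie near the left and SLC25A51 has points both in the middle and at the right.

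Carriers of trace metals included 2 genes with 1 recurrent site each. SLC39A7 releases zinc from the endoplasmic reticulum. Its strongest peak lay at the 5′ end, in exon 1 of 7, in all 6 lists. SLC25A51 also had a peak listed as 5′ untranslated region in every list. Folds of the SLC39A7 peak were 3.4, 3.02 and 3.45 in Large White and 4.43, 2.17 and 2.33 in Ningxiang. Log10 p was -29, -22.2 and -37.1 in Large White and -34.1, -13.5 and -15.4 in Ningxiang, so Ningxiang replicates 2 and 3 were the weakest and replicate 1 lay within the Large White range. The 150 bases covered in all lists were at chromosome 7, 25243578 to 25243727. Large White replicate 3 also had a peak in the 3′ untranslated region, with a fold of 1.86.

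SLC31A1 is the copper importer of the plasma membrane. Its peaks had folds of 3.53, 4.55 and 4.12 in Large White and 3.34, 2.83 and 3.48 in Ningxiang. All 3 Large White log10 p, -14.7, -17.1 and -12.4, were lower than those of Ningxiang, -10.4, -4.87 and -7.97. As p depends on depth and on the level of the RNA, neither of which is known here, this order does not show more m6A. The share of all genes with such an order is not given here, so it may not be particular to this gene. The peaks lay in the 3′ untranslated region, 1527 to 1587 bases before the end, with 150 bases in common at chromosome 1, 253891399 to 253891548.

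Of 8 curated zinc exporters of the SLC30 subfamily, 5 were listed and none in all 6 lists. SLC30A1, the zinc exporter of the plasma membrane, was in 2 Large White lists and 1 Ningxiang list, with folds of 3.88 to 6.78 in exon 2 of 2. SLC30A9 was in 3 Large White and 2 Ningxiang lists, at sites spread over much of its 18 exons, and no base was shared by those lists. SLC30A5 and SLC30A7, zinc carriers of the secretory pathway, were each in 1 list. SLC31A2, the relative of SLC31A1, was in 3 lists with folds of 2.70 to 6.63.

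SLC16A1, which carries lactate and pyruvate with protons, had peaks at different sites in different lists. Folds were low, 1.92, 1.97 and 1.63 in Large White and 1.68, 1.87 and 1.74 in Ningxiang, with log10 p of -9.91, -8.89 and -11.5 and of -8.76, -12.8 and -5.98. In Large White the strongest peaks covered the end of exon 3 of 4, with blocks of 254, 178 and 165 bases. They reached 12 bases into the next exon in replicates 1 and 3 and none in replicate 2. In Ningxiang, blocks of 248, 307 and 178 bases lay within the last 307 bases of the transcript. The end of exon 3 was covered by 18 bases in Ningxiang replicate 1, by 165 in replicate 2 and by none in replicate 3. Merged at an overlap of 1 base, the site at the 3′ end was listed in 2 Large White and 3 Ningxiang lists. With at least 50 bases required, the 12-base Large White blocks were kept apart, and the site counted as Ningxiang only. The share of all regions that did so at 50 bases is not given here. A site upstream in exon 3, at chromosome 4, 107543633 to 107543809, was listed in Ningxiang replicates 2 and 3 and in no Large White list. At a minimum fold of 2 only 1 list kept a peak on the gene.

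SLC27A1, a fatty acid transport protein of muscle and fat cells, was marked in exon 13 of 13 in every list. Folds were 2.43, 4.77 and 2.21 in Large White and 1.91, 2.76 and 3.10 in Ningxiang. Log10 p was -10.6, -16 and -12.5 in Large White and -5.93, -8.16 and -10.5 in Ningxiang, so every Large White value was lower, by as little as -10.6 against -10.5. The limits given for SLC31A1 on reading such an order hold here too. The gene had 11 peaks in all, and 151 bases were covered in every list, at chromosome 2, 60205995 to 60206145. SLC66A1, the lysosomal exporter of cationic amino acids, had 3′ untranslated region peaks with folds of 3.38, 2.86 and 8.68 in Large White and 3.99, 3.25 and 5.66 in Ningxiang. Its log10 p was strongest in the third replicate of each breed, -17.7 and -16.2, against -8.52 to -5.74 in the other lists, and 120 bases were covered in all.

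**Figure D4:**
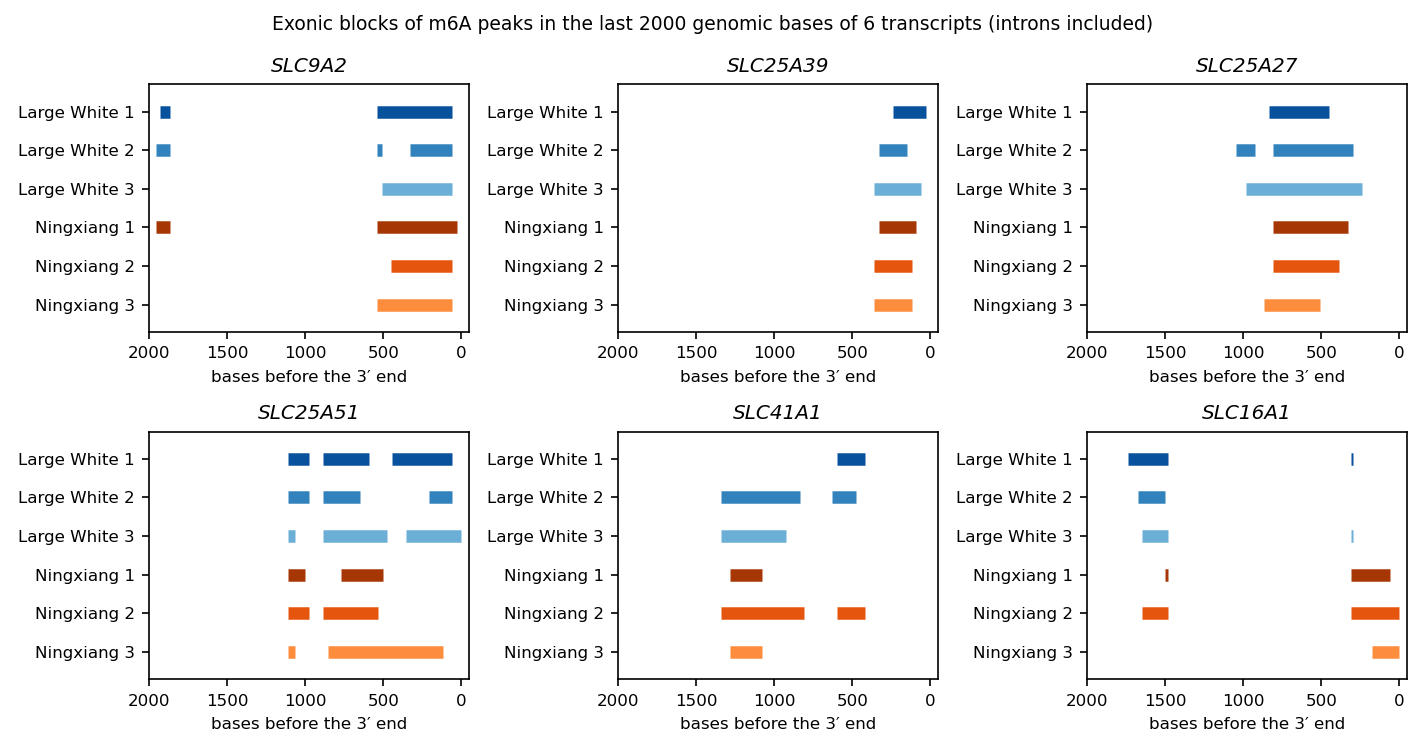
Horizontal bars are the exonic blocks of peaks near the 3′ end of 6 transcripts (horizontal axis, bases before the 3′ end, with 0 at the end), 1 row per list. SLC9A2 has a block at the same place in every list, while in SLC16A1 the blocks at the 3′ end are 178 to 307 bases long in Ningxiang and at most 12 bases in Large White.

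Of the 5 listed genes in the amino acid group, which leaves out SLC66A1, none had a peak in all 6 lists. SLC6A8, which takes creatine up into muscle, came closest, with 2 Large White and 3 Ningxiang lists. Its folds were 2.09 and 1.96 in Large White replicates 1 and 3 and 2.51, 2.15 and 3.31 in Ningxiang, at log10 p from -19.5 to -13.8. The 121 bases common to the 5 lists lay at chromosome X, 124452032 to 124452152. SLC7A2, a cationic amino acid carrier, was in 2 lists of each breed, with folds of 1.96 to 3.26 in the 3′ untranslated region. SLC7A7, the light chain of another cationic amino acid exchanger, was in 1 list of each breed, and 2 of its 3 peaks lie over OXA1L, a neighbouring gene, so their source is uncertain. SLC3A1, the heavy chain of the cystine transporter, was in Ningxiang replicate 3 alone.

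SLC35A4, of the nucleotide sugar transporter family, was in 3 Large White and 2 Ningxiang lists with folds of 1.79 to 3.67 and log10 p of -24.5 to -15.1. Its peaks lay 714 to 804 bases before the 3′ end of the single exon and shared 149 bases. SLC35C1, the GDP-fucose carrier of the Golgi, SLC35D2, another nucleotide sugar carrier, and SLC33A1, the acetyl-CoA carrier of the endoplasmic reticulum, were each in 1 list. So were SLC37A4, the glucose 6-phosphate carrier, SLC19A2, a thiamine carrier, and SLC46A3, a lysosomal carrier. SLC46A1, the proton-coupled folate carrier, was in 1 list of each breed, and its fold of 19.3 in Large White replicate 2 was the highest of any SLC peak, at a log10 p of only -4.89. SLC10A7, of the bile acid carrier family, was in 1 list of each breed in its 5′ untranslated region, with folds of 13 and 6.95.

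Partners and regulators of these carriers were looked up from a list of 25 genes, of which 11 have a curated transcript. Peaks were listed on 8 of the 11, where 53.5% of all genes with a curated transcript had one. IRS1 and AKT1, which pass on the insulin signal, had one in all 6 lists, as did 35.7% of all genes with a peak. AKT2, the kinase that acts on glucose carrier traffic in muscle, was in 3 Large White and 2 Ningxiang lists, as were SGK1, a kinase that regulates several ion carriers, and TFRC, the transferrin receptor. BSG, the partner that brings SLC16A1 to the membrane, was in 2 lists of each breed with folds of 2.42 to 2.77. ATP1B1, a subunit of the sodium pump, was in 2 Large White lists and 1 Ningxiang list. None of the 8 was listed in all replicates of one breed and missing from the other breed (2.08% of all genes with a peak were).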

How the data were processed

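The 12 samples comprise an immunoprecipitated and an input sample for each of 3 replicates per breed. Each replicate has its own deposited peak list, 6 in all, and no list pools replicates. Each list was assigned to the immunoprecipitated sample whose description names it. The submitters' processing notes name ChIPseeker 1.30.2, HOMER, FastQC 0.11.9 and the genome build susScr11. Aligner and peak caller: not given in the sources used here. Fold, as deposited, is a ratio on a linear scale, read here as immunoprecipitated over input. The deposited p-value of a peak ranked peaks within a list. The authors' log10 p, a score in which lower is stronger, is printed as deposited. Both were used only to describe peaks within a list. The highest p-value was 0.0087 and the lowest fold 1.53.

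Starts count from 0 and were raised by 1. Listed exon numbers rise along the chromosome and were turned round on the minus strand. Members were matched to the RefSeq table of Sscrofa11.1 by transcript (42 of 42; SLC66A1 is PQLC2 there). Exonic regions were merged blocks overlapping by at least 1 bp. Values per list were compared with exact two-sided permutation tests, adjusted by Benjamini-Hochberg over the 4 comparisons. Per-list values are given for genes in all 6 lists and genes in 3 of 3 lists of one breed and 0 or 1 of the other; other genes are named once. A few items are counted but not reported singly here. The members and lists were chosen with earlier results of these data known. Python 3.11.15, pandas 2.3.3, NumPy 2.4.6 and statsmodels 0.14.6 were used, and counting was tested on simulated lists.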

Additional observations from a re-analysis of the deposited data

How the results depend on the processing

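The 4 comparisons between breeds could not pass 0.05 in this design, so their p-values say nothing about stability, and their small differences changed sign under some alternatives. Large White minus Ningxiang, the SLC share of genes was 0.0763 percentage points with the stronger 50% of each list and 0.0306 at an equal number of peaks. At equal numbers the last-exon share differed by 0.509 points. With a minimum fold of 2 the gene number differed by -1. Leaving out 1 list gave -1.33 to 1.67 for gene number and -1 to 5.5 for peaks, the negative values without Large White replicate 3. It gave -0.172 (without Large White replicate 3) to -0.0096 (without Large White replicate 1) points for the share of genes, and -7.64 (without Ningxiang replicate 3) to -1.62 (without Ningxiang replicate 1) points for the last-exon share. The number of genes in all 6 lists fell to 4 with the stronger 50% (SLC9A2, SLC25A39, SLC25A51 and SLC39A7). Genes in all lists of one breed and none of the other numbered 1 at equal numbers (SLC1A3) and 0 to 2 when 1 list was left out (SLC4A4 without Large White replicate 2, SLC1A3 without Large White replicate 3, SLC30A6 and SLC25A1 without Ningxiang replicate 2). Exonic regions of that kind numbered 1 at equal numbers, 1 with an overlap of 50 bp and 1 to 3 when 1 list was left out. The shares of all genes and all regions under these settings are not given here, so these counts have no background beside them. Leaving out a list also makes the rule easier to meet, as fewer lists need to match. Over all genes, deviations of same-numbered lists correlated at 0.022, 0.013 and -0.036, and those of unlike-numbered lists at -0.055 to 0.043. Whether equal numbers mark a shared batch cannot be told from these values. With a replicate block (exact sign-flip test, smallest p 0.25) the differences stayed at 0.667 genes (p = 1), 2.67 peaks (p = 0.75), -0.084 points of share (p = 0.75) and -3.78 points in the last exon (p = 0.5). Any block in the last exon and leaving out the scaffold genes were chosen after seeing the data. Depth is unknown, which limits every statement about a missing peak.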

Other observations

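Other transport genes were looked up from patterns of gene symbols. Over all genes with a curated transcript 53.5% had a peak, and 35.7% of all genes with a peak had one in all 6 lists. Of 18 ATPase genes with a curated transcript, among them ATP5A1 of the mitochondrial ATP synthase, 10 had a peak and 3 had one in all 6 lists. ATP2A1, the calcium pump of fast muscle, had folds of 2.63 to 3.32, and its strongest peak lay in the last exon in 6 of 6 lists. ATP2B1, a calcium pump of the plasma membrane, had folds of 2.09 to 2.76, and ATP9A, of the lipid flippase family, 2.01 to 2.73. ATP6V1C1, a subunit of the proton pump of acidic compartments, was in 2 Large White and 3 Ningxiang lists. Of 5 ABC transporter genes with a curated transcript, 3 had a peak, and ABCF1, a family member that acts in translation and not in transport, was the one in all 6 lists. SLCO2A1, a prostaglandin carrier, was in 1 Large White list and 2 Ningxiang lists. None of these genes was listed in all replicates of one breed and missing from the other breed (2.08% of all genes with a peak were).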
